A study of Mus musculus with 21 samples.

Results

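Glycolysis turns glucose into pyruvate, and the 34 genes described here encode its glucose transporters and enzymes, the enzymes and carriers that make and move lactate, and the enzymes that pass pyruvate on to the mitochondrion. They are members of the pathway by name, were chosen with earlier results of these data known, and were all found among the 16443 genes of the deposited expression table. Poly(A) RNA was sequenced in 21 libraries of the mouse embryonic stem line 2TS22C to compare cells whose endogenous SOX2 had been silenced and replaced from a lentivirus with cells that had not been transduced. NTC are the cells that were not transduced, with a genotype given as WT and no doxycycline treatment. SOX2, FNV and miniSOX are 2TS22C cells on doxycycline, with endogenous SOX2 silenced and a lentivirus carrying SOX2, SOX17FNV (an engineered SOX17) or miniSOX, a factor whose makeup the labels do not describe. Each line was grown in serum and LIF (SL) and in the same kind of medium with 2i, inhibitors of the kinases MEK and GSK3. The 2i libraries number 3 for NTC, 4 for SOX2, 4 for FNV and 2 for miniSOX, and each line has 2 in SL. Every rescued line therefore differs from NTC in the rescue factor, the loss of endogenous SOX2, the lentivirus and doxycycline together, and these cannot be told apart here. All libraries come from 1 parental line, and the labels do not say whether a rescued line is 1 clone.

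In glycolysis, glucose is taken up, phosphorylated and split into short sugars, which are then oxidised to pyruvate with a net gain of ATP. Pyruvate is either reduced to lactate, which leaves the cell through monocarboxylate transporters and regenerates NAD+, or enters the mitochondrion to be oxidised by the pyruvate dehydrogenase complex, which pyruvate dehydrogenase kinases switch off. Embryonic stem cells are known for a high rate of glycolysis, and many of these genes are textbook targets of the hypoxia-inducible factors and of MYC.

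The deposited values are whole numbers that had been brought to a common distribution, so their level can be compared between libraries for a gene, and they are not compared between genes, since no source used here says whether they were scaled by transcript length. The library totals lay between 14044316 and 14047262 for that reason, and read depth is unknown. At the top the scale is a ladder of steps: the same 10 ranks of each library carry the highest value, 76006, and there are 31 distinct values at or above 10000 in all libraries. Among the genes described, Slc2a3 stood at this ceiling in 7 libraries, Gapdh in 15 and Aldoa in 1, so differences above it cannot be seen. Sox2 stood at 19 to 60 in the FNV and miniSOX libraries, which matched the silencing given for these lines. In 2i it was 939 to 1509 in SOX2 and 1310 to 2697 in NTC. In SL it was 921 to 1389 in SOX2 and 533 to 843 in NTC. The SOX2 and NTC ranges overlapped in 2i, so Sox2 did not tell these lines apart there. Sox17 stood at 1792 to 3301 in FNV in 2i and at 13693 to 30391 in FNV in SL. In miniSOX it was 1813 to 1953 in 2i and 4138 to 4179 in SL, against 0 to 6 in the other lines. Its level thus differed between media and, in SL, between FNV and miniSOX, and the part of this in the results was not tested. The 8 pluripotency markers were present in every group, with a summed value of 46304 to 86997. The libraries fall into a first set, which is replicates 1 and 2 in both media for all lines but miniSOX, and a second set, which holds the p21 and p31 libraries of those lines in 2i and all miniSOX libraries, so that miniSOX is compared with the other lines across sets, through a term for the set that rests on the 2i libraries. Titles of the second set other than miniSOX call the libraries biological replicates 2 and 3, while the miniSOX titles give replicates 1 and 2. Replicates 1 and 2 of the first set, and those of miniSOX, may therefore be technical, and p-values then measure only the spread between these libraries. Where replicates are averaged, this was done in the first set only, so the miniSOX libraries were not averaged. The NTC 2i p31 library stood apart from the other NTC 2i libraries for several genes, and results that rest on it are given with and without it. A gene was called, and is said to have risen or fallen, where the Benjamini-Hochberg adjusted p of limma over all 16443 genes was under 0.05, and changes are on the scale of log2(value + 1), given as the change ± its standard error. Values are listed in the order replicate 1, replicate 2, p21 (where there is one) and p31.

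Against NTC in 2i, most of the chain from glucose uptake to lactate export was lower in the rescued lines. In SOX2, 17 of the 34 genes fell and 5 rose, against 28.7% of all genes called (14.3% lower and 14.4% higher), and the median log2 change was -0.46 beside 0.02 over all genes. In FNV, 18 fell and 3 rose, against 39.7% of all genes called (20% lower, 19.7% higher), with a median of -0.62 beside -0.01. In miniSOX, 17 fell and 3 rose, against 27.7% of all genes called (13.5% lower, 14.3% higher), with a median of -0.73 beside -0.01. Slc16a3, Slc2a1, Pgk1, Pfkl, Pdk1, Pkm, Ldha, Ldhb, Eno1, Gpi1 and Pgam1 were called lower in all 3 lines, and Pdk2 higher in all 3, also with any single library left out. Tpi1, Aldoc, Aldoa and Pdha1 were called lower and Pfkm higher in all 3, with at least 1 of the 3 calls lost when a single library was left out. These 3 comparisons share the same NTC libraries. Within the second set alone, where NTC is the single p31 library, 8 genes passed in SOX2 and 11 in FNV, and with replicates 1 and 2 averaged 11 passed in SOX2 and 13 in miniSOX. No single library left out moved these 3 counts by more than 1.5 times. In bulk libraries fewer cells of a type and less RNA per cell cannot be told apart.

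**Figure D1:**
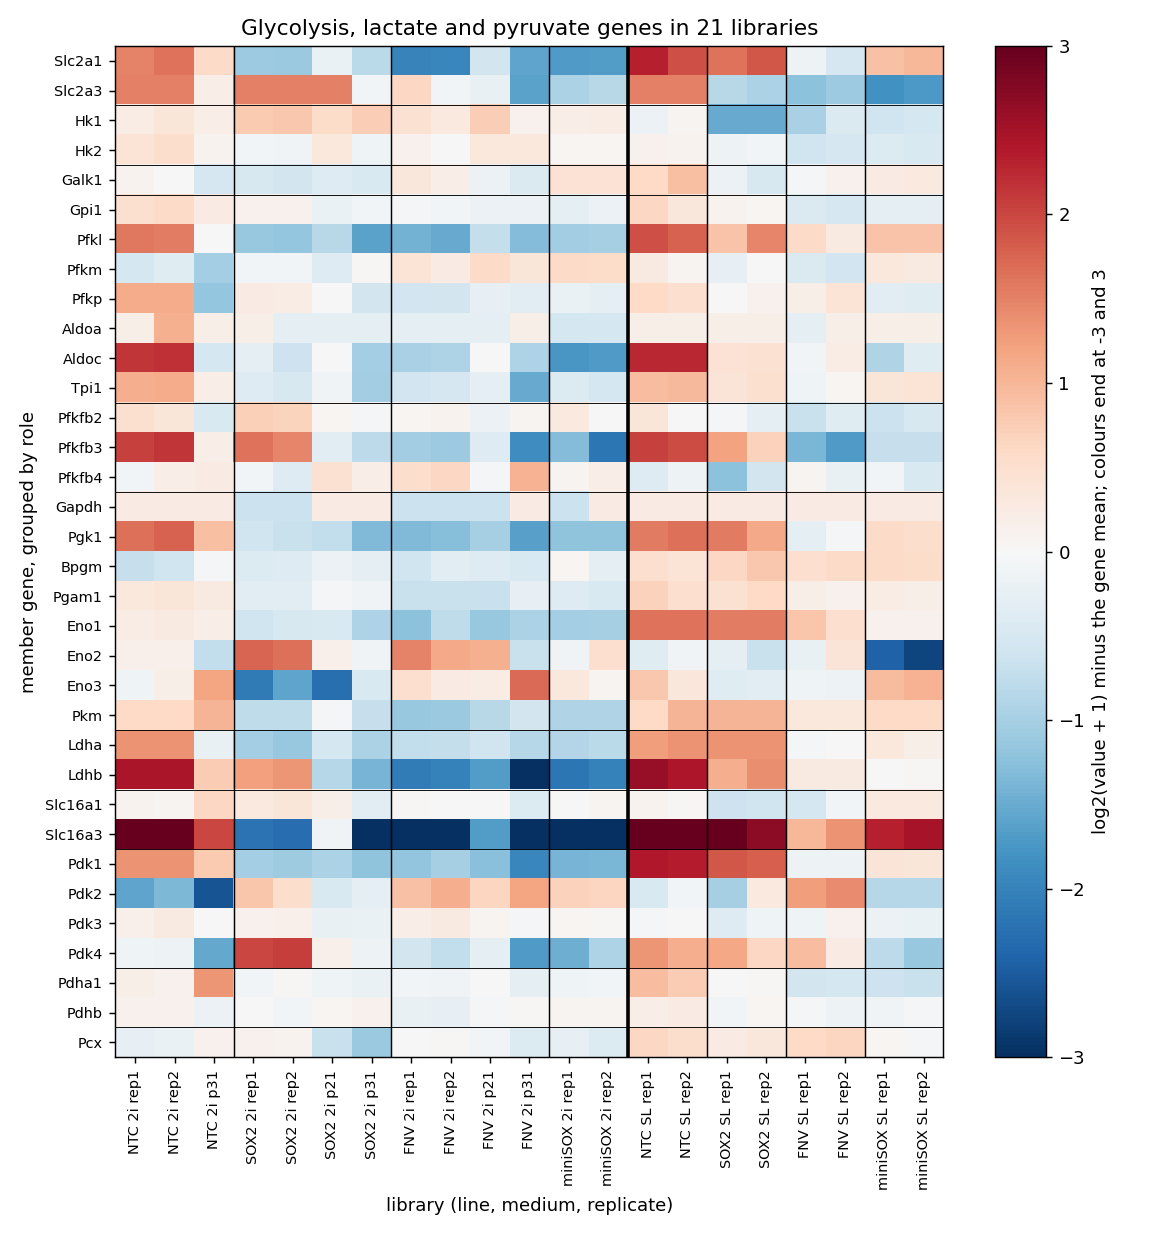
Deposited values of the 34 genes in the 21 libraries, drawn as the difference of log2(value + 1) from each gene's mean, with genes in pathway order and libraries by group. The blue block in the rescued 2i columns covers Slc2a1, Pfkl, Pgk1, Ldha, Slc16a3 and Pdk1, which were called lower than NTC in SOX2, FNV and miniSOX.

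Glucose enters these cells through GLUT1, encoded by Slc2a1, and GLUT3, encoded by Slc2a3, a transporter of high affinity for glucose. Slc2a1 (chromosome 4, 119108711 to 119137983, plus strand), with all coordinates here from the GENCODE annotation of GRCm38, was lower in the rescued lines. In 2i, Slc2a1 stood at 6370, 7059 and 3376 in NTC, 1065, 1051, 1988 and 1286 in SOX2, 564, 581, 1553 and 752 in FNV and 699 and 704 in miniSOX. In SL, Slc2a1 stood at 11386 and 8734 in NTC, 7059 and 8269 in SOX2, 2054 and 1609 in FNV and 4178 and 4524 in miniSOX. Every rescued library was below every NTC library in its medium, and in SL the 4 lines did not overlap, with FNV lowest. Slc2a1 fell in 2i in SOX2 (-2.09 ± 0.32 log2, adjusted p = 0.000297), in FNV (-2.81 ± 0.32 log2, adjusted p = 8.09e-06) and in miniSOX (-3.14 ± 0.42 log2, adjusted p = 7.95e-05). It fell in FNV in SL (-2.46 ± 0.42 log2, adjusted p = 0.000548), and its change in SOX2 in SL, -0.38 ± 0.42 log2 (adjusted p = 0.58), did not pass. The step from SL to 2i lowered Slc2a1 in SOX2 (-2.71 ± 0.38 log2, adjusted p = 5.72e-05) and in miniSOX (-2.63 ± 0.42 log2, adjusted p = 0.000221), and in NTC its change was -1.01 ± 0.39 log2 (adjusted p = 0.0737). The calls for Slc2a1 in SOX2 against NTC in 2i (adjusted p = 0.192) and FNV against NTC in 2i (adjusted p = 0.0524) did not pass within the second set alone. The call for Slc2a1 in FNV against NTC in SL (adjusted p = 0.0717) did not pass with the first-set replicates averaged. For Slc2a1, the log2 change without NTC 2i p31 was -2.74 in SOX2 against NTC in 2i, -3.47 in FNV against NTC in 2i and -4.01 in miniSOX against NTC in 2i.

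Slc2a3 (chromosome 6, 122727809 to 122801640, minus strand) reached the ceiling of the scale, so differences above that value cannot be seen in it. In 2i, Slc2a3 stood at 76006, 76006 and 30387 in NTC, 76006, 76006, 76006 and 25019 in SOX2, 40741, 25019, 22912 and 8734 in FNV and 13688 and 14818 in miniSOX. In SL, Slc2a3 stood at 76006 and 76006 in NTC, 14818 and 13688 in SOX2, 11386 and 12486 in FNV and 7522 and 8024 in miniSOX. Both NTC libraries in SL stood at the ceiling and all 6 rescued libraries were far below it, whereas in 2i SOX2 and FNV overlapped NTC and only miniSOX lay below it. In SL, Slc2a3 fell in SOX2 (-2.42 ± 0.43 log2, adjusted p = 0.00207), FNV (-2.67 ± 0.43 log2, adjusted p = 0.00037) and miniSOX (-2.22 ± 0.51 log2, adjusted p = 0.00704). In SOX2 it was higher in 2i than in SL (2.55 ± 0.40 log2, adjusted p = 0.000126), the opposite direction to Slc2a1 in the same cells, and the sizes of these 4 changes are limited by the ceiling. The calls for Slc2a3 in SOX2 against NTC in SL (adjusted p = 0.209), FNV against NTC in SL (adjusted p = 0.0776) and miniSOX against NTC in SL (adjusted p = 0.145) did not pass with the first-set replicates averaged.

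Hexokinases trap glucose in the cell by phosphorylating it, and galactokinase, encoded by Galk1, does the same for galactose. Hk1 (chromosome 10, 62268855 to 62379908, minus strand) responded to both medium and line. In 2i, Hk1 stood at 1496, 1655 and 1483 in NTC, 2209, 2268, 1893 and 2161 in SOX2, 1769, 1575, 2151 and 1415 in FNV and 1479 and 1516 in miniSOX. In SL, Hk1 stood at 1137 and 1375 in NTC, 451 and 451 in SOX2, 654 and 959 in FNV and 848 and 889 in miniSOX. In 2i SOX2 lay above NTC, and in SL every rescued library lay below both NTC libraries, with SOX2 lowest. Hk1 rose from SL to 2i in SOX2 (2.26 ± 0.17 log2, adjusted p = 1.35e-07), FNV (1.13 ± 0.17 log2, adjusted p = 7.69e-05) and miniSOX (0.79 ± 0.18 log2, adjusted p = 0.0038), and in NTC its change was 0.32 ± 0.17 log2 (adjusted p = 0.19). In SL Hk1 was lower in SOX2 than in NTC (-1.47 ± 0.18 log2, adjusted p = 0.00011). Hk2, the hexokinase of proliferating and insulin-sensitive cells, ranged over all libraries only from 1763 to 3820. Hk2 rose from SL to 2i in FNV (0.71 ± 0.14 log2, adjusted p = 0.000813) and fell in FNV against NTC in SL (-0.66 ± 0.15 log2, adjusted p = 0.00423). The call for Hk2 in FNV against NTC in SL (adjusted p = 0.163) did not pass with the first-set replicates averaged.

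Galk1 (chromosome 11, 116008457 to 116012719, minus strand) was called higher in miniSOX than in each other line in 2i, but the call against FNV (0.61 ± 0.17 log2, adjusted p = 0.0406) was lost without any of 8 libraries, without the term for the set, within the second set alone and with replicates averaged. In 2i, Galk1 stood at 1694, 1578 and 1110 in NTC, 1133, 1072, 1201 and 1152 in SOX2, 2006, 1792, 1399 and 1158 in FNV and 2112 and 2126 in miniSOX. In SL, Galk1 stood at 2374 and 2954 in NTC, 1395 and 1119 in SOX2, 1531 and 1730 in FNV and 1857 and 1918 in miniSOX. Both miniSOX libraries were above every other 2i library, and in SL both NTC libraries were above every rescued one. Galk1 was higher in miniSOX than in SOX2 in 2i (1.06 ± 0.17 log2, adjusted p = 0.000846) and higher than in NTC (0.77 ± 0.18 log2, adjusted p = 0.00583). In SL it was lower in SOX2 than in NTC (-1.08 ± 0.18 log2, adjusted p = 0.00139). The call for Galk1 in miniSOX against NTC in 2i (adjusted p = 0.0717) did not pass without the term for the set. The call for Galk1 in miniSOX against NTC in 2i (0.61, adjusted p = 0.0536) did not pass without NTC 2i p31. The call for Galk1 in SOX2 against NTC in SL (adjusted p = 0.106) did not pass with the first-set replicates averaged.

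Phosphofructokinase makes the committed step of glycolysis, and its liver, muscle and platelet subunits, encoded by Pfkl, Pfkm and Pfkp, did not move together. Pfkl (chromosome 10, 77986947 to 78010083, minus strand) fell in the rescued lines. In 2i, Pfkl stood at 7310, 7061 and 2447 in NTC, 1119, 1099, 1370 and 798 in SOX2, 921, 861, 1488 and 996 in FNV and 1193 and 1219 in miniSOX. In SL, Pfkl stood at 9369 and 8272 in NTC, 4455 and 6700 in SOX2, 3619 and 2954 in FNV and 4454 and 4411 in miniSOX. No rescued library reached the NTC range in either medium, and the NTC p31 library was well below the other NTC libraries in 2i. In 2i Pfkl fell in SOX2 (-2.18 ± 0.31 log2, adjusted p = 0.000173), FNV (-2.23 ± 0.31 log2, adjusted p = 5.63e-05) and miniSOX (-1.89 ± 0.41 log2, adjusted p = 0.00319). From SL to 2i it fell in SOX2 (-2.22 ± 0.37 log2, adjusted p = 0.000242) and miniSOX (-1.88 ± 0.41 log2, adjusted p = 0.00245), and in NTC its change was -0.73 ± 0.38 log2 (adjusted p = 0.184). The calls for Pfkl in SOX2 against NTC in 2i (adjusted p = 0.0885), FNV against NTC in 2i (adjusted p = 0.104) and miniSOX against NTC in 2i (adjusted p = 0.102) did not pass within the second set alone. The call for Pfkl in miniSOX against NTC in 2i (adjusted p = 0.0514) did not pass with the first-set replicates averaged. For Pfkl, the log2 change without NTC 2i p31 was -2.83 in SOX2 against NTC in 2i, -2.88 in FNV against NTC in 2i and -2.76 in miniSOX against NTC in 2i.

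Pfkm (chromosome 15, 98092589 to 98132451, plus strand) went the other way. In 2i, Pfkm stood at 505, 567 and 361 in NTC, 690, 682, 559 and 747 in SOX2, 973, 857, 1076 and 936 in FNV and 1089 and 1068 in miniSOX. In SL, Pfkm stood at 873 and 775 in NTC, 613 and 726 in SOX2, 538 and 492 in FNV and 904 and 876 in miniSOX. In 2i all FNV and miniSOX libraries were above all NTC and SOX2 libraries, while in SL both FNV libraries were the lowest of that medium. Pfkm rose in 2i in SOX2 (0.52 ± 0.13 log2, adjusted p = 0.00886), FNV (1.05 ± 0.13 log2, adjusted p = 2.22e-05) and miniSOX (1.28 ± 0.17 log2, adjusted p = 8.96e-05). In FNV it was higher in 2i than in SL (0.96 ± 0.16 log2, adjusted p = 0.000223) where in NTC it was lower (-0.77 ± 0.16 log2, adjusted p = 0.00317). That difference between the lines was itself tested and came to 1.72 ± 0.22 log2 (adjusted p = 5.68e-05). Pfkm shares exonic sequence with Senp1 on the opposite strand, and whether counting used strand was not given in the sources used here. Pfkp was called in none of the 16 comparisons, although its values ran from 2446 in the NTC 2i p31 library to 11819 in both other NTC 2i libraries. The calls for Pfkm in SOX2 against NTC in 2i (adjusted p = 0.061) and 2i against SL in NTC (adjusted p = 0.092) did not pass with the first-set replicates averaged. The call for Pfkm in SOX2 against NTC in 2i (0.30, adjusted p = 0.0949) did not pass without NTC 2i p31.

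Downstream of phosphofructokinase, aldolase splits the sugar and triosephosphate isomerase, encoded by Tpi1, interconverts the products. Aldoc (chromosome 11, 78322968 to 78327781, plus strand), the brain-type aldolase, ranged from 27 to 450. In 2i, Aldoc stood at 416, 426 and 64 in NTC, 77, 60, 93 and 45 in SOX2, 47, 48, 94 and 48 in FNV and 27 and 28 in miniSOX. In SL, Aldoc stood at 450 and 448 in NTC, 125 and 127 in SOX2, 88 and 109 in FNV and 49 and 72 in miniSOX. In SL every rescued library was below both NTC libraries, and in 2i the NTC p31 library, at 64, lay inside the SOX2 and FNV ranges. Aldoc fell in 2i in FNV (-1.89 ± 0.49 log2, adjusted p = 0.00621) and miniSOX (-2.64 ± 0.63 log2, adjusted p = 0.00613). Aldoa, the main aldolase, lay on 4 steps of the scale between 25021 and 76006, which leaves little resolution, and its calls in 2i were each lost when 1 of several libraries was left out. The calls for Aldoc in FNV against NTC in 2i (adjusted p = 0.971) and miniSOX against NTC in 2i (adjusted p = 0.205) did not pass within the second set alone. The calls for Aldoc in FNV against NTC in 2i (adjusted p = 0.191) and miniSOX against NTC in 2i (adjusted p = 0.0875) did not pass with the first-set replicates averaged. For Aldoc, the log2 change without NTC 2i p31 was -2.98 in FNV against NTC in 2i and -4.10 in miniSOX against NTC in 2i.

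Tpi1 (chromosome 6, 124810586 to 124814296, minus strand) overlaps Spsb2 on the opposite strand. In 2i, Tpi1 stood at 6698, 6869 and 3646 in NTC, 2413, 2267, 2932 and 1525 in SOX2, 2125, 2230, 2579 and 1107 in FNV and 2373 and 2199 in miniSOX. In SL, Tpi1 stood at 5994 and 6245 in NTC, 4137 and 4409 in SOX2, 2897 and 3325 in FNV and 4087 and 4232 in miniSOX. All rescued libraries were below all NTC libraries in both media. Tpi1 fell in 2i in SOX2 (-1.24 ± 0.25 log2, adjusted p = 0.0019) and FNV (-1.45 ± 0.25 log2, adjusted p = 0.000292). Gpi1, glucose-6-phosphate isomerase, ranged from 5395 to 11819 and was called lower than NTC in each rescued line in both media. The call with the highest adjusted p was that of SOX2 in SL (-0.40 ± 0.09 log2, adjusted p = 0.00955). Its largest change was in FNV in SL (-0.95 ± 0.09 log2, adjusted p = 3.88e-06), and in 2i it fell in SOX2 (-0.39 ± 0.07 log2, adjusted p = 0.000883), FNV (-0.50 ± 0.07 log2, adjusted p = 5.32e-05) and miniSOX (-0.50 ± 0.09 log2, adjusted p = 0.000885). The calls for Tpi1 in SOX2 against NTC in 2i (adjusted p = 0.446) and FNV against NTC in 2i (adjusted p = 0.225) and Gpi1 in SOX2 against NTC in 2i (adjusted p = 0.0637) did not pass within the second set alone. The calls for Tpi1 in SOX2 against NTC in 2i (adjusted p = 0.0994) and Gpi1 in SOX2 against NTC in SL (adjusted p = 0.214) did not pass with the first-set replicates averaged. The call for Gpi1 in SOX2 against NTC in SL (adjusted p = 0.0856) did not pass without the term for the set. The call for Gpi1 in SOX2 against NTC in SL (-0.25, adjusted p = 0.13) did not pass without NTC SL replicate 1. The call for Gpi1 in SOX2 against NTC in SL (-0.37, adjusted p = 0.0596) did not pass without SOX2 SL replicate 2.

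Fructose 2,6-bisphosphate is the strongest activator of phosphofructokinase, and the PFKFB enzymes make and break it. Pfkfb3 (chromosome 2, 11471433 to 11554077, minus strand), the form with the highest kinase activity, differed between lines in both media. In 2i, Pfkfb3 stood at 622, 660 and 171 in NTC, 464, 412, 118 and 85 in SOX2, 71, 69, 113 and 40 in FNV and 60 and 32 in miniSOX. In SL, Pfkfb3 stood at 621 and 579 in NTC, 341 and 239 in SOX2, 57 and 45 in FNV and 91 and 92 in miniSOX. FNV and miniSOX lay below NTC in both media, and SOX2 overlapped NTC in 2i but not in SL. Pfkfb3 fell in FNV in 2i (-2.36 ± 0.42 log2, adjusted p = 0.000449) and in SL (-3.54 ± 0.55 log2, adjusted p = 0.000268), and was lower in FNV than in SOX2 in SL (-2.47 ± 0.55 log2, adjusted p = 0.00544). Pfkfb2 stayed between 140 and 362 and was called in 4 comparisons, which were 2i against SL in each rescued line, for FNV with a rise (0.80 ± 0.19 log2, adjusted p = 0.00298), and FNV against NTC in SL (-0.68 ± 0.20 log2, adjusted p = 0.0197). Pfkfb2 shares exonic sequence with Gm29427 on the same strand and with Yod1 on the opposite strand, so its values are uncertain where reads could be split. Pfkfb4 was near the bottom of the scale, at 9 to 47, and was called in 1 comparison. The call for Pfkfb3 in FNV against NTC in 2i (adjusted p = 0.219) did not pass within the second set alone. The calls for Pfkfb3 in FNV against NTC in SL (adjusted p = 0.0565) and FNV against SOX2 in SL (adjusted p = 0.213) and Pfkfb2 in 2i against SL in FNV (adjusted p = 0.0506) and FNV against NTC in SL (adjusted p = 0.218) did not pass with the first-set replicates averaged. The calls for Pfkfb2 in 2i against SL in FNV (adjusted p = 0.126) and FNV against NTC in SL (adjusted p = 0.127) did not pass without the term for the set. The call for Pfkfb2 in FNV against NTC in SL (-0.49, adjusted p = 0.18) did not pass without NTC SL replicate 1. The call for Pfkfb2 in FNV against NTC in SL (-0.54, adjusted p = 0.14) did not pass without FNV SL replicate 1.

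The lower arm of the pathway yields ATP at phosphoglycerate kinase, encoded by Pgk1, and at pyruvate kinase, encoded by Pkm. Pgk1 (chromosome X, 106187100 to 106203699, plus strand) showed the full pattern. In 2i, Pgk1 stood at 21185, 22912 and 12486 in NTC, 4409, 4233, 4048 and 2697 in SOX2, 2677, 2781, 3357 and 2161 in FNV and 2897 and 2897 in miniSOX. In SL, Pgk1 stood at 19697 and 21185 in NTC, 19697 and 14818 in SOX2, 5475 and 6554 in FNV and 10050 and 9718 in miniSOX. In 2i each rescued library was far below each NTC library, whereas in SL SOX2 reached the NTC range, miniSOX was lower and FNV lowest. In 2i Pgk1 fell in SOX2 (-2.21 ± 0.18 log2, adjusted p = 1.49e-06), FNV (-2.69 ± 0.18 log2, adjusted p = 5.47e-08) and miniSOX (-2.42 ± 0.24 log2, adjusted p = 5.10e-06). In SL it fell in FNV (-1.77 ± 0.24 log2, adjusted p = 7.57e-05), and its change in SOX2 was -0.26 ± 0.24 log2 (adjusted p = 0.497). From SL to 2i Pgk1 fell in SOX2 (-2.0 ± 0.22 log2, adjusted p = 4.99e-06) and miniSOX (-1.77 ± 0.24 log2, adjusted p = 4.56e-05), but in NTC its change was -0.05 ± 0.22 log2 (adjusted p = 0.94). The annotation names 2 pseudogenes each of Pgk1, Ldha, Aldoa, Gapdh and Pgam1, so the values of these genes are uncertain where reads could be split.

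Pkm (chromosome 9, 59656368 to 59679375, plus strand) gives both the M1 and the M2 form of pyruvate kinase by splicing, which gene values do not separate. In 2i, Pkm stood at 30387, 30387 and 40741 in NTC, 11819, 11819, 19697 and 12486 in SOX2, 9102, 9368, 11386 and 13688 in FNV and 10739 and 10739 in miniSOX. In SL, Pkm stood at 30387 and 40741 in NTC, 40741 and 40741 in SOX2, 25019 and 25019 in FNV and 30387 and 30387 in miniSOX. In 2i all rescued libraries were below all NTC libraries, and in SL SOX2 and miniSOX lay within the NTC range with FNV just under it. Pkm was still called lower than NTC in SL in FNV and in miniSOX. Both calls were lost without the term for the set and with the first-set replicates averaged. Leaving out NTC SL replicate 2, or either SL replicate of the rescued line, also ended each call. Pkm fell in 2i in SOX2 (-1.37 ± 0.13 log2, adjusted p = 4.17e-06), FNV (-1.71 ± 0.13 log2, adjusted p = 1.22e-07) and miniSOX (-1.92 ± 0.16 log2, adjusted p = 1.58e-06). It also fell from SL to 2i in SOX2 (-1.79 ± 0.15 log2, adjusted p = 5.12e-07), FNV (-1.43 ± 0.15 log2, adjusted p = 3.55e-06) and miniSOX (-1.50 ± 0.16 log2, adjusted p = 7.54e-06), with a change of -0.21 ± 0.15 log2 (adjusted p = 0.359) in NTC.

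Enolase, which makes phosphoenolpyruvate, has a ubiquitous form encoded by Eno1, a neuronal form encoded by Eno2 and a muscle form encoded by Eno3. Eno1 (chromosome 4, 150236721 to 150248879, plus strand) fell with 2i in every line. In 2i, Eno1 stood at 7522, 7795 and 7307 in NTC, 4232, 4581, 4667 and 3357 in SOX2, 2743, 3770, 2896 and 3301 in FNV and 3160 and 3209 in miniSOX. In SL, Eno1 stood at 19697 and 19697 in NTC, 18497 and 18497 in SOX2, 11386 and 9102 in FNV and 7059 and 7059 in miniSOX. Each line was higher in SL than in 2i with no overlap, and in 2i every rescued library was below every NTC library. From SL to 2i Eno1 fell in NTC (-1.35 ± 0.14 log2, adjusted p = 1.19e-05), SOX2 (-2.10 ± 0.14 log2, adjusted p = 5.42e-08), FNV (-1.64 ± 0.14 log2, adjusted p = 4.85e-07) and miniSOX (-1.15 ± 0.15 log2, adjusted p = 4.70e-05). Against NTC in 2i it fell in SOX2 (-0.84 ± 0.12 log2, adjusted p = 0.000149), FNV (-1.24 ± 0.12 log2, adjusted p = 1.38e-06) and miniSOX (-1.18 ± 0.15 log2, adjusted p = 6.46e-05). In SL it was lower in FNV (-0.95 ± 0.15 log2, adjusted p = 0.000362) and in miniSOX (-1.38 ± 0.18 log2, adjusted p = 0.000134), while its change in SOX2 was -0.09 ± 0.15 log2 (adjusted p = 0.752).

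Eno2 (chromosome 6, 124760053 to 124769673, minus strand) was low throughout. In 2i, Eno2 stood at 29, 29 and 15 in NTC, 89, 84, 29 and 24 in SOX2, 74, 58, 55 and 16 in FNV and 24 and 37 in miniSOX. In SL, Eno2 stood at 20 and 24 in NTC, 21 and 16 in SOX2, 22 and 34 in FNV and 4 and 3 in miniSOX. The SOX2 and FNV replicates 1 and 2 in 2i were the highest, and their p31 libraries lay within or near the NTC range. Eno2 rose from SL to 2i in SOX2 (1.97 ± 0.40 log2, adjusted p = 0.0011) and in miniSOX (2.78 ± 0.44 log2, adjusted p = 0.000207). Eno3 (chromosome 11, 70657202 to 70662513, plus strand) was lowest in SOX2. In 2i, Eno3 stood at 178, 219 and 442 in NTC, 44, 64, 40 and 142 in SOX2, 276, 232, 226 and 637 in FNV and 241 and 206 in miniSOX. In SL, Eno3 stood at 343 and 245 in NTC, 150 and 155 in SOX2, 178 and 174 in FNV and 380 and 401 in miniSOX. All 4 SOX2 libraries in 2i were below all other 2i libraries, and both SOX2 libraries in SL were below all other SL libraries. In 2i Eno3 was lower in SOX2 than in NTC (-2.13 ± 0.37 log2, adjusted p = 0.000758) and higher in FNV than in SOX2 (2.27 ± 0.34 log2, adjusted p = 0.000218). The call for Eno2 in 2i against SL in SOX2 (adjusted p = 0.0993) did not pass without the term for the set. The call for Eno2 in 2i against SL in SOX2 (adjusted p = 0.0812) did not pass with the first-set replicates averaged. The calls for Eno3 in SOX2 against NTC in 2i (adjusted p = 0.125) and FNV against SOX2 in 2i (adjusted p = 0.131) did not pass within the second set alone.

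Between phosphoglycerate kinase and enolase, Pgam1 encodes phosphoglycerate mutase and Bpgm the enzyme that makes bisphosphoglycerate. Bpgm (chromosome 6, 34476207 to 34505613, plus strand) differed between the media. In 2i, Bpgm stood at 107, 114 and 168 in NTC, 131, 133, 154 and 141 in SOX2, 114, 139, 132 and 126 in FNV and 181 and 143 in miniSOX. In SL, Bpgm stood at 247 and 231 in NTC, 269 and 303 in SOX2, 247 and 259 in FNV and 260 and 255 in miniSOX. Every SL library was above every 2i library, and both SOX2 libraries were the highest in SL, while in 2i both miniSOX libraries lay above FNV and the other pairs of lines overlapped. Bpgm fell from SL to 2i in NTC (-0.98 ± 0.15 log2, adjusted p = 0.00026), SOX2 (-1.14 ± 0.14 log2, adjusted p = 2.19e-05), FNV (-1.09 ± 0.14 log2, adjusted p = 2.94e-05) and miniSOX (-0.68 ± 0.16 log2, adjusted p = 0.00411), and it passed in no comparison of lines. Pgam1 ranged from 4178 to 10739 and fell in 2i in SOX2 (-0.55 ± 0.09 log2, adjusted p = 0.000534), FNV (-0.90 ± 0.09 log2, adjusted p = 2.52e-06) and miniSOX (-0.84 ± 0.12 log2, adjusted p = 0.000125). Gapdh stood at the ceiling of the scale in 15 libraries and at the next step down in the other 6, all of them 2i libraries of rescued lines, so its size of change cannot be read. The call for Bpgm in 2i against SL in NTC (adjusted p = 0.0558) did not pass with the first-set replicates averaged. The call for Bpgm in 2i against SL in miniSOX (-0.51, adjusted p = 0.0647) did not pass without miniSOX 2i replicate 2. The call for Pgam1 in SOX2 against NTC in 2i (adjusted p = 0.248) did not pass within the second set alone.

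**Figure D2:**
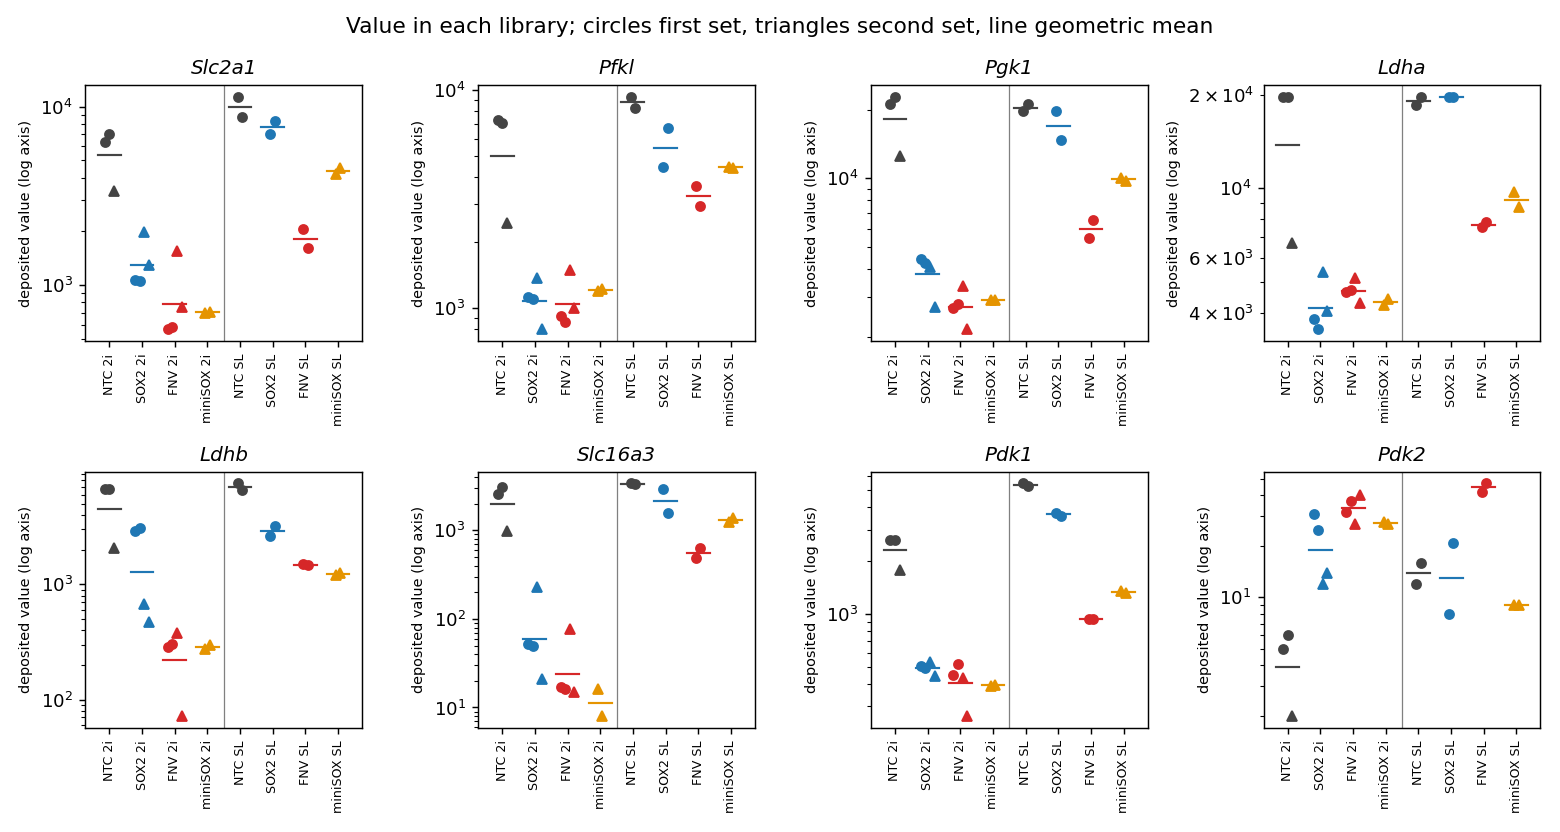
Deposited values on a log axis for 8 of the genes in each library, grouped by line and medium, with a bar at each group's geometric mean. Slc16a3 runs from 991 to 3108 in NTC in 2i and from 8 to 229 in the rescued lines there.

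Lactate dehydrogenase is built of subunits encoded by Ldha, the form known for making lactate, and Ldhb, the form known for using it. Ldha (chromosome 7, 46841475 to 46855627, plus strand) was lower in all rescued lines in 2i. In 2i, Ldha stood at 19699, 19699 and 6700 in NTC, 3819, 3536, 5396 and 4048 in SOX2, 4669, 4733, 5154 and 4307 in FNV and 4233 and 4411 in miniSOX. In SL, Ldha stood at 18500 and 19699 in NTC, 19699 and 19699 in SOX2, 7524 and 7798 in FNV and 9718 and 8736 in miniSOX. In 2i the highest rescued library, at 5396, was below the lowest NTC library, p31 at 6700, and in SL SOX2 stood level with NTC while FNV and miniSOX were lower. In 2i Ldha fell in SOX2 (-1.69 ± 0.27 log2, adjusted p = 0.000366), FNV (-1.50 ± 0.27 log2, adjusted p = 0.000416) and miniSOX (-1.50 ± 0.35 log2, adjusted p = 0.00505). In SL it fell in FNV (-1.32 ± 0.35 log2, adjusted p = 0.0104), and its change in SOX2 was 0.05 ± 0.35 log2 (adjusted p = 0.977). From SL to 2i it fell in SOX2 (-2.12 ± 0.32 log2, adjusted p = 9.44e-05). The calls for Ldha in SOX2 against NTC in 2i (adjusted p = 0.166), FNV against NTC in 2i (adjusted p = 0.133) and miniSOX against NTC in 2i (adjusted p = 0.0791) did not pass within the second set alone. The calls for Ldha in SOX2 against NTC in 2i (adjusted p = 0.0511), miniSOX against NTC in 2i (adjusted p = 0.0778) and FNV against NTC in SL (adjusted p = 0.211) did not pass with the first-set replicates averaged. The call for Ldha in FNV against NTC in SL (-1.27, adjusted p = 0.0567) did not pass without NTC SL replicate 2. The call for Ldha in FNV against NTC in SL (-1.29, adjusted p = 0.0508) did not pass without FNV SL replicate 1. For Ldha, the log2 change without NTC 2i p31 was -2.34 in SOX2 against NTC in 2i, -2.15 in FNV against NTC in 2i and -2.36 in miniSOX against NTC in 2i.

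Ldhb (chromosome 6, 142490249 to 142507957, minus strand) was lower than NTC in all rescued lines in 2i. In 2i, Ldhb stood at 6700, 6700 and 2074 in NTC, 2897, 3056, 672 and 467 in SOX2, 287, 301, 381 and 72 in FNV and 273 and 298 in miniSOX. In SL, Ldhb stood at 7524 and 6556 in NTC, 2602 and 3237 in SOX2, 1487 and 1483 in FNV and 1211 and 1265 in miniSOX. In 2i FNV and miniSOX were below every NTC and SOX2 library, and SOX2 itself split by set, with replicates 1 and 2 at 2897 and 3056 and p21 and p31 at 672 and 467. In 2i Ldhb fell in FNV (-4.08 ± 0.43 log2, adjusted p = 4.08e-06) and in miniSOX (-2.90 ± 0.55 log2, adjusted p = 0.00148), and it was lower in FNV than in SOX2 (-2.54 ± 0.39 log2, adjusted p = 0.000299). In SOX2 its change against NTC in 2i was smaller (-1.54 ± 0.43 log2, adjusted p = 0.0151). The calls for Ldhb in miniSOX against NTC in 2i (adjusted p = 0.0755), FNV against SOX2 in 2i (adjusted p = 0.245) and SOX2 against NTC in 2i (adjusted p = 0.244) did not pass within the second set alone. The call for Ldhb in SOX2 against NTC in 2i (adjusted p = 0.074) did not pass without the term for the set. The call for Ldhb in SOX2 against NTC in 2i (adjusted p = 0.133) did not pass with the first-set replicates averaged. For Ldhb, the log2 change without FNV 2i p21 was -3.15 in FNV against SOX2 in 2i.

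Slc16a3 (chromosome 11, 120948480 to 120960868, plus strand) encodes MCT4, a lactate exporter, and showed the largest range of the 34 genes. In 2i, Slc16a3 stood at 2566, 3108 and 991 in NTC, 52, 50, 229 and 21 in SOX2, 17, 16, 77 and 15 in FNV and 16 and 8 in miniSOX. In SL, Slc16a3 stood at 3405 and 3358 in NTC, 2954 and 1582 in SOX2, 494 and 629 in FNV and 1251 and 1370 in miniSOX. In 2i all rescued libraries were below all NTC libraries, with SOX2 p21 and FNV p21 the highest of their groups, and in SL the order was NTC, SOX2, miniSOX and FNV with no overlap. Slc16a3 fell in 2i in SOX2 (-5.06 ± 0.71 log2, adjusted p = 0.000172), FNV (-6.35 ± 0.71 log2, adjusted p = 8.54e-06) and miniSOX (-7.45 ± 0.93 log2, adjusted p = 5.34e-05). From SL to 2i it fell in SOX2 (-5.24 ± 0.85 log2, adjusted p = 0.000207), FNV (-4.58 ± 0.85 log2, adjusted p = 0.000623) and miniSOX (-6.73 ± 0.93 log2, adjusted p = 7.39e-05), and in NTC its change was -0.82 ± 0.87 log2 (adjusted p = 0.56). The calls for Slc16a3 in SOX2 against NTC in 2i (adjusted p = 0.178) and FNV against NTC in 2i (adjusted p = 0.0778) did not pass within the second set alone. The call for Slc16a3 in 2i against SL in FNV (adjusted p = 0.066) did not pass with the first-set replicates averaged. For Slc16a3, the log2 change without NTC 2i p31 was -5.90 in SOX2 against NTC in 2i, -7.19 in FNV against NTC in 2i and -8.57 in miniSOX against NTC in 2i. For Slc16a3, the log2 change without SOX2 2i p21 was -5.67 in SOX2 against NTC in 2i.

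Slc16a1 (chromosome 3, 104638668 to 104658462, plus strand) encodes MCT1, which carries lactate in either direction, and varied far less. In 2i, Slc16a1 stood at 2305, 2253 and 3265 in NTC, 2635, 2761, 2413 and 1700 in SOX2, 2199, 2169, 2151 and 1616 in FNV and 2169 and 2267 in miniSOX. In SL, Slc16a1 stood at 2305 and 2190 in NTC, 1379 and 1422 in SOX2, 1479 and 2006 in FNV and 2602 and 2621 in miniSOX. In SL both SOX2 libraries were the lowest and both miniSOX libraries the highest, and in 2i FNV lay below NTC while the other pairs of lines overlapped. Slc16a1 rose from SL to 2i in SOX2 (0.79 ± 0.20 log2, adjusted p = 0.00566) and was higher in miniSOX than in SOX2 in SL (1.01 ± 0.26 log2, adjusted p = 0.0133). The calls for Slc16a1 in 2i against SL in SOX2 (adjusted p = 0.138) and miniSOX against SOX2 in SL (adjusted p = 0.149) did not pass with the first-set replicates averaged. The call for Slc16a1 in miniSOX against SOX2 in SL (1.01, adjusted p = 0.0502) did not pass without miniSOX SL replicate 1. The call for Slc16a1 in miniSOX against SOX2 in SL (1.0, adjusted p = 0.0529) did not pass without miniSOX SL replicate 2.

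Pyruvate dehydrogenase kinases switch off the entry of pyruvate into the mitochondrion, and the 4 genes for them, Pdk1 to Pdk4, went different ways. Pdk1 (chromosome 2, 71873224 to 71903858, plus strand) fell in 5 of 6 comparisons with NTC. In 2i, Pdk1 stood at 2621, 2621 and 1774 in NTC, 508, 493, 535 and 444 in SOX2, 450, 518, 431 and 264 in FNV and 392 and 396 in miniSOX. In SL, Pdk1 stood at 5475 and 5265 in NTC, 3725 and 3579 in SOX2, 929 and 929 in FNV and 1347 and 1316 in miniSOX. In 2i the rescued lines were all below NTC, with miniSOX below SOX2 and FNV overlapping both, and in SL the order was NTC, SOX2, miniSOX and FNV with no overlap. Pdk1 fell in 2i in SOX2 (-2.16 ± 0.14 log2, adjusted p = 1.85e-07), FNV (-2.45 ± 0.14 log2, adjusted p = 1.37e-08) and miniSOX (-2.31 ± 0.19 log2, adjusted p = 9.50e-07). It fell in SL in FNV (-2.53 ± 0.19 log2, adjusted p = 3.75e-07) and miniSOX (-1.66 ± 0.22 log2, adjusted p = 0.000146), and in SOX2 its change was -0.56 ± 0.19 log2 (adjusted p = 0.0582). From SL to 2i it fell in NTC (-1.11 ± 0.17 log2, adjusted p = 0.000379), SOX2 (-2.71 ± 0.17 log2, adjusted p = 3.02e-08), FNV (-1.03 ± 0.17 log2, adjusted p = 0.000229) and miniSOX (-1.75 ± 0.19 log2, adjusted p = 5.49e-06). The call for Pdk1 in 2i against SL in NTC (adjusted p = 0.0646) did not pass with the first-set replicates averaged.

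Pdk2 (chromosome 11, 95026258 to 95041354, minus strand) was expressed near the bottom of the scale and went the other way. In 2i, Pdk2 stood at 5, 6 and 2 in NTC, 31, 25, 12 and 14 in SOX2, 32, 37, 27 and 40 in FNV and 28 and 27 in miniSOX. In SL, Pdk2 stood at 12 and 16 in NTC, 8 and 21 in SOX2, 42 and 47 in FNV and 9 and 9 in miniSOX. In 2i all rescued libraries were above all NTC libraries, and in SL the FNV libraries stood above all others. Pdk2 rose in 2i in SOX2 (2.12 ± 0.32 log2, adjusted p = 0.000253), FNV (2.90 ± 0.32 log2, adjusted p = 5.68e-06) and miniSOX (2.97 ± 0.41 log2, adjusted p = 0.000119). Pdk4 (chromosome 6, 5483351 to 5496309, minus strand) was higher in SOX2 replicates 1 and 2 in 2i than anywhere else. In 2i, Pdk4 stood at 50, 49 and 18 in NTC, 222, 231, 61 and 49 in SOX2, 37, 32, 44 and 16 in FNV and 19 and 28 in miniSOX. In SL, Pdk4 stood at 137 and 116 in NTC, 122 and 84 in SOX2, 105 and 65 in FNV and 31 and 24 in miniSOX. The p21 and p31 libraries of SOX2 were much lower, at 61 and 49, the second of them within the NTC range. Pdk4 rose in SOX2 against NTC in 2i (1.83 ± 0.37 log2, adjusted p = 0.00198), and was lower in FNV than in SOX2 (-1.85 ± 0.34 log2, adjusted p = 0.00104). Pdk3 varied little, from 946 to 1502, and was called in 4 comparisons, none of them against NTC. The calls for Pdk4 in SOX2 against NTC in 2i (adjusted p = 0.177) and FNV against SOX2 in 2i (adjusted p = 0.331) did not pass within the second set alone. The calls for Pdk4 in SOX2 against NTC in 2i (adjusted p = 0.0616) and FNV against SOX2 in 2i (adjusted p = 0.0639) did not pass with the first-set replicates averaged.

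Pdha1 (chromosome X, 160122209 to 160138413, minus strand) encodes the catalytic alpha subunit of pyruvate dehydrogenase and overlaps Map3k15 on the opposite strand. In 2i, Pdha1 stood at 6700, 6556 and 14822 in NTC, 5669, 6129, 5476 and 5155 in SOX2, 5669, 5574, 5995 and 4828 in FNV and 5476 and 5669 in miniSOX. In SL, Pdha1 stood at 11389 and 10054 in NTC, 5995 and 6129 in SOX2, 4034 and 4138 in FNV and 3863 and 3770 in miniSOX. In SL both NTC libraries were above all rescued libraries, and in 2i the NTC p31 library, at 14822, stood far above the others. Pdha1 fell in SL in FNV (-1.39 ± 0.25 log2, adjusted p = 0.000894) and miniSOX (-1.70 ± 0.30 log2, adjusted p = 0.00128). In 2i it was called lower in FNV (-0.69 ± 0.19 log2, adjusted p = 0.0107) and also in SOX2 and miniSOX, and those 3 calls rest on that library. The calls for Pdha1 in FNV against NTC in SL (adjusted p = 0.0832) and miniSOX against NTC in SL (adjusted p = 0.0525) did not pass with the first-set replicates averaged. The call for Pdha1 in FNV against NTC in 2i (-0.22, adjusted p = 0.0618) did not pass without NTC 2i p31. Without NTC 2i p31 the changes in SOX2 and miniSOX in 2i were -0.19 (adjusted p = 0.116) and -0.14 (adjusted p = 0.394). Pdhb, the beta subunit, ranged from 1769 to 2492, and Pcx, pyruvate carboxylase, which turns pyruvate into oxaloacetate, from 313 to 1065, and neither passed in any of the 16 comparisons.

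**Figure D3:**
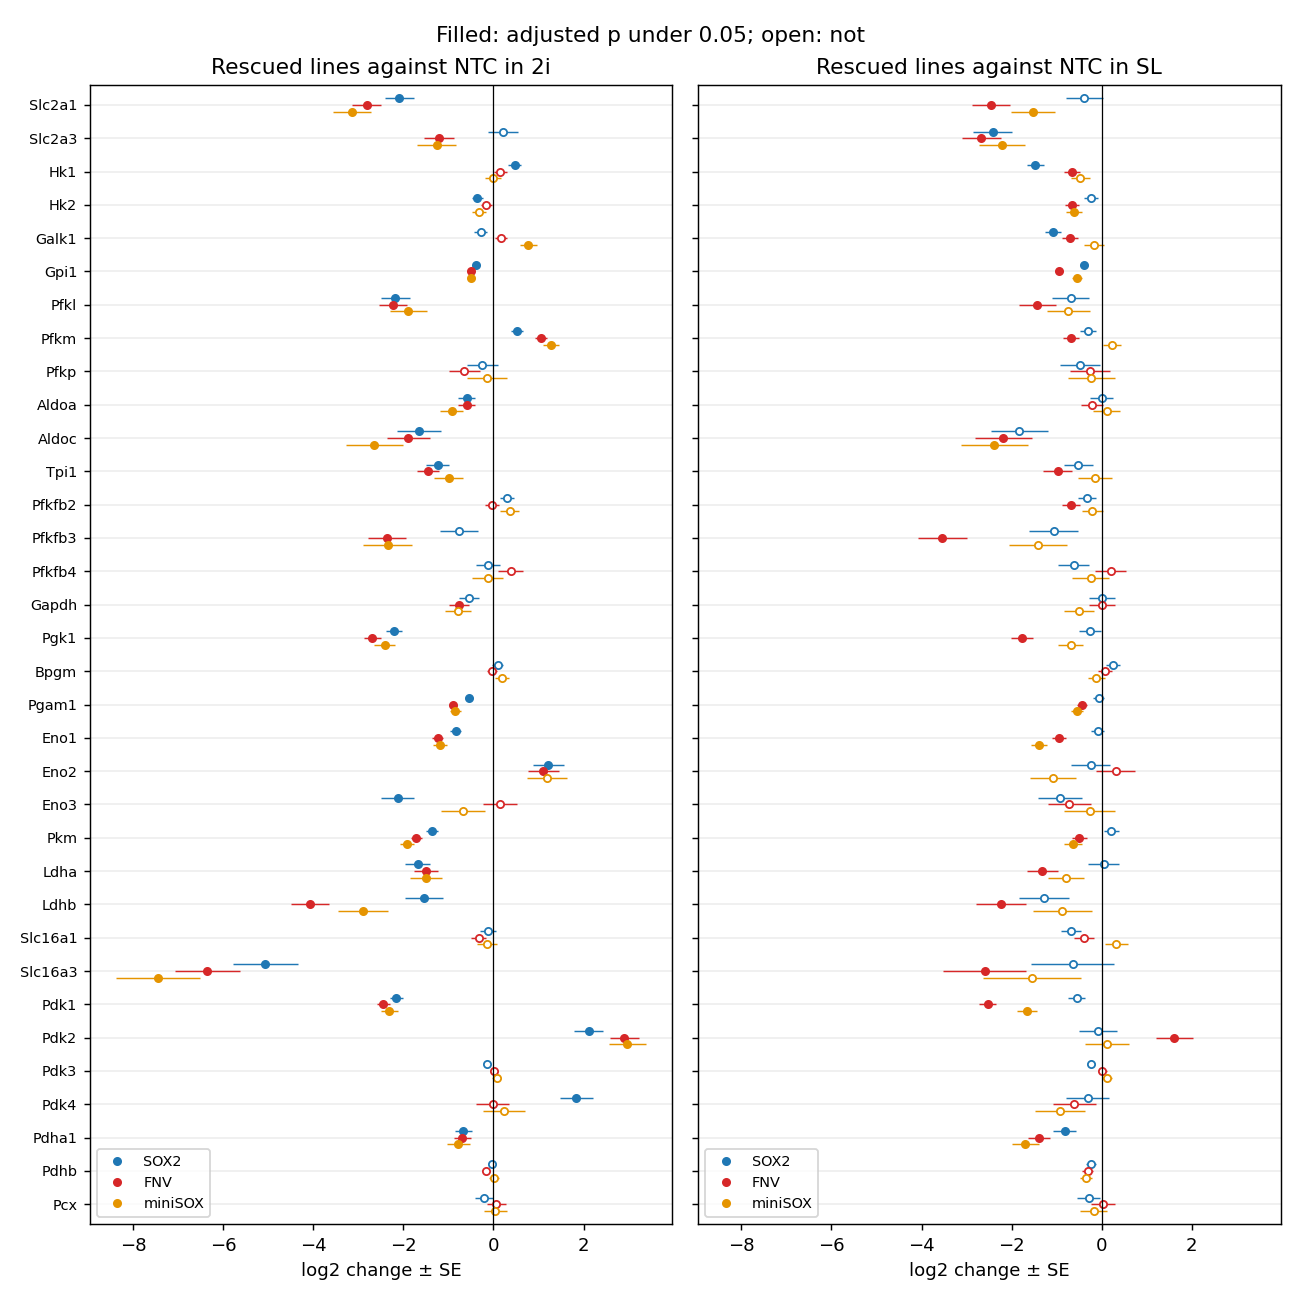
Log2 change of each of the 34 genes against NTC in 2i (left) and in SL (right) for SOX2, FNV and miniSOX, with bars of 1 SE and filled points for calls. In 2i Slc16a3 lies farthest left, at -5.06 in SOX2, -6.35 in FNV and -7.45 in miniSOX, and Pdk2 and Pfkm lie to the right of 0.

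In SL the rescued lines differed from NTC and from each other more unevenly. FNV was lowest: 21 of the 34 genes fell against NTC and 1 rose, where 30% of all genes were called (15.8% lower, 14.2% higher), with a median log2 change of -0.68 beside -0.04 over all genes. That count was 13 without NTC SL replicate 1, 14 without NTC SL replicate 2, 14 without FNV SL replicate 1, 14 without FNV SL replicate 2, and 4 with replicates 1 and 2 averaged. In SOX2, 5 fell and 0 rose, where 15% of all genes were called (7.63% lower, 7.35% higher), with a median of -0.36 beside -0.01. The 5 were Slc2a3, Hk1, Galk1, Gpi1 and Pdha1, and the count was 9 without NTC 2i p31, 10 without FNV 2i p21, 3 without NTC SL replicate 1, 17 within the first set alone and 1 with replicates averaged. In miniSOX, 10 fell and 0 rose, where 19.6% of all genes were called (10.2% lower, 9.44% higher), with a median of -0.55 beside -0.02. The miniSOX count was 6, 6, 6 and 5 without, in turn, NTC SL replicate 1, NTC SL replicate 2, miniSOX SL replicate 1 and miniSOX SL replicate 2, and 3 with replicates averaged. Markers of other cell types moved between these groups: the summed value of 8 trophectoderm markers was 10967 to 11133 in NTC, 1585 to 2479 in SOX2, 2373 to 2415 in FNV and 17968 to 18100 in miniSOX. Cdx2 was at 0 to 2 in every SL library. Much of the high sums came from Krt8 (4732 and 5051 in NTC, 8269 and 8024 in miniSOX) and Krt18 (3404 and 3185, 5475 and 5475). Against its sum, FNV had higher Tfap2c (943 and 1040) than NTC (692 and 663). The 12 feeder and fibroblast markers summed to 569 to 618 in NTC and 314 to 356 in SOX2 (Dcn and Lum at 0 in both), 1063 to 1092 in FNV and 1864 to 2053 in miniSOX (Lum at 0 in both). The higher sum in FNV than in NTC came largely from Thy1 (530 and 523 against 4 and 5). The other markers went both ways, with Dcn (105 and 92 against 0 and 0) and Tagln (70 and 78 against 47 and 50) higher. Postn (69 and 89 against 181 and 215) and Col1a2 (63 and 78 against 108 and 109) were lower. The 5 of 8 primitive endoderm markers in the table summed to 3258 to 3340, 3263 to 3305, 3274 to 3462 and 4410 to 4528 in the order NTC, SOX2, FNV and miniSOX. The level sums of NTC and FNV hide opposite moves. Gata6 (176 and 218 in NTC, 1 and 0 in FNV), Pdgfra (180 and 140, 33 and 24) and Dab2 (227 and 207, 131 and 134) were lower in FNV. Lama1 (841 and 895 in NTC, 1002 and 898 in FNV) and Lamb1 (1834 and 1880, 2295 and 2218) were higher. In 2i, in the order NTC, SOX2, FNV and miniSOX, the trophectoderm markers summed to 1229 to 2723, 817 to 1437, 5267 to 7370 and 2590 to 2651, the feeder markers to 180 to 229, 213 to 304, 248 to 275 and 288 to 386, and the primitive endoderm markers to 2959 to 3175, 2399 to 3874, 7618 to 7700 and 5280 to 5510, with none at 0 in a whole group. In NTC in 2i the trophectoderm sum was uneven, with Cdx2 at 15, 12 and 519 and Krt8 at 381, 355 and 958, p31 last. Cdx2 was 0, 0, 27 and 40 in SOX2, 245, 235, 217 and 452 in FNV and 106 and 86 in miniSOX there. The higher primitive endoderm sum in FNV than in NTC in 2i came largely from Dab2 (4972, 4972, 3897 and 4178 against 240, 243 and 398). The part of these cells in the results was not tested.

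Between rescued lines in 2i, miniSOX against FNV had the fewest calls, among these genes as among all genes. FNV against SOX2 had 8 genes lower and 3 higher, where 25.2% of all genes were called (12.9% lower, 12.4% higher), with a median of -0.21 beside -0.01. The lower ones included Ldhb, Pdk4, Pfkfb3 and Slc2a3, and the higher ones were Eno3, Pfkm and Galk1, yet within the first set alone 18 genes passed, within the second set alone 0 passed, with replicates averaged 2 passed, and without FNV 2i replicate 1 there were 7. MiniSOX against SOX2 had 4 lower and 3 higher, where 14.9% of all genes were called (7.57% lower, 7.32% higher), with a median of -0.07 beside -0.01. This count was 11 without NTC 2i p31, 11 without FNV 2i p21, 3 without SOX2 2i p21, 1 without miniSOX 2i replicate 1 and 2 without miniSOX 2i replicate 2. MiniSOX against FNV had 1 gene higher, Galk1, and 0 lower, where 7.66% of all genes were called (3.85% lower, 3.81% higher), with a median of 0.06 beside -0.01. That call was lost without any of 8 libraries, and the count ran from 0 to 4 over single libraries left out and was highest without FNV 2i p21.

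Between rescued lines in SL FNV was below SOX2 at several steps. FNV against SOX2 had 9 genes lower and 2 higher, where 21.4% of all genes were called (11.2% lower, 10.2% higher), with a median of -0.35 beside 0.00. Slc2a1 (-2.07 ± 0.42 log2, adjusted p = 0.00297), Pgk1 (-1.51 ± 0.24 log2, adjusted p = 0.000506) and Pdk1 (-1.97 ± 0.19 log2, adjusted p = 7.79e-06) were among the lower ones, and Hk1 and Pdk2 were higher. The calls for Slc2a1 in FNV against SOX2 in SL (adjusted p = 0.171) and Pgk1 in FNV against SOX2 in SL (adjusted p = 0.0914) did not pass with the first-set replicates averaged. The count was 7 without FNV SL replicate 2, 19 within the first set alone and 1 with replicates averaged. MiniSOX against SOX2 had 5 lower and 4 higher, where 21.6% of all genes were called (11.2% lower, 10.4% higher), with a median of -0.13 beside 0.00, and the count was 5 without miniSOX SL replicate 1 and 5 without replicate 2. MiniSOX against FNV had 5 higher (Gpi1, Pfkm, Pfkfb3, Pgk1 and Pdk1) and 0 lower, where 15.2% of all genes were called (7.8% lower, 7.4% higher), with a median of 0.25 beside 0.02. The miniSOX against FNV count was 2 without either FNV SL replicate, 1 without either miniSOX SL replicate and 0 with replicates averaged.

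From SL to 2i, more of these genes were called lower than higher in every line, by unequal margins. In NTC the share called in either direction, 26.5%, was near the 24.6% of all genes. In NTC 8 of the 34 fell and 1 rose, where 24.6% of all genes were called (12.8% lower, 11.9% higher), with a median log2 change of -0.21 beside 0.00 over all genes. The count of 9 was 5 without NTC SL replicate 1 or without replicate 2, and 1 with replicates averaged, when Eno1 passed. In SOX2 12 fell and 7 rose (44.9% of all genes called, 22.5% lower, 22.3% higher), with a median of -0.24 beside 0.00. In FNV 11 fell and 8 rose (40.6% of all genes called, 20.4% lower, 20.3% higher), with a median of -0.22 beside 0.03, and 9 passed with replicates averaged. In miniSOX 12 fell and 5 rose (33.4% of all genes called, 16.4% lower, 17% higher), with a median of -0.40 beside -0.02, and the count was 11 without miniSOX 2i replicate 1. Eno1, Pdk1, Bpgm and Pgam1 were called lower in 2i in all 4 lines, the Pgam1 call in NTC being lost under 15 alternatives, whereas Hk1 was called higher in the rescued lines.

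**Figure D4:**
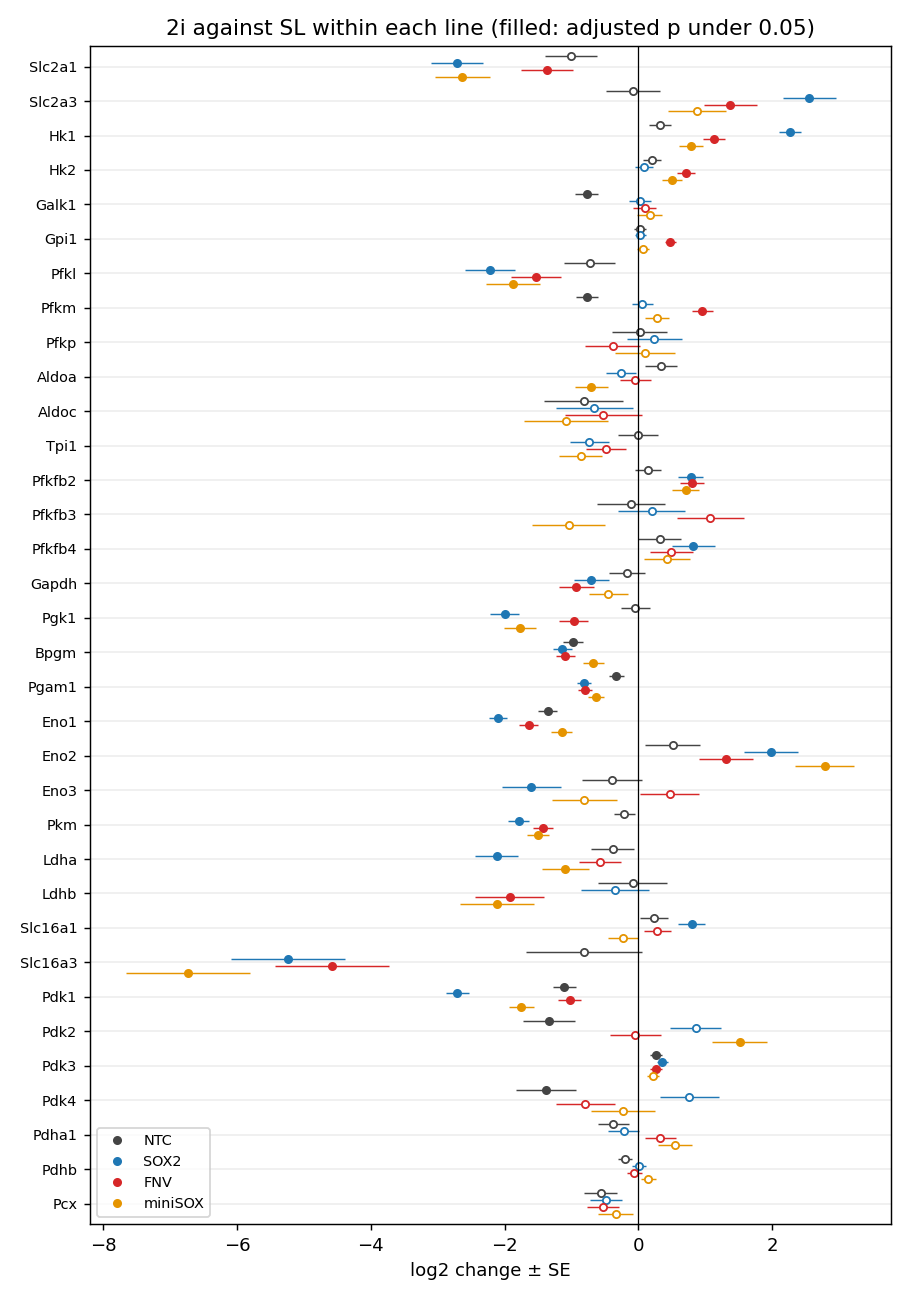
Log2 change of each of the 34 genes from SL to 2i in NTC, SOX2, FNV and miniSOX, with bars of 1 SE and filled points for calls. Eno1 lies left of 0 in all 4 lines, at -1.35 in NTC and -2.10 in SOX2, and Slc16a3 spreads from NTC to -6.73 in miniSOX.

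Whether 2i acted differently in the rescued lines was tested as the difference of the 2 effects. In SOX2 the effect of 2i was more negative than in NTC for 8 genes and more positive for 6 (18.8% of all genes called, 9.01% lower and 9.82% higher). In FNV it was more negative than in NTC for 4 and more positive for 4 (25.8% of all genes called, 12.4% lower and 13.4% higher), and in miniSOX for 3 and 4 (13.7% of all genes called, 5.96% lower and 7.71% higher). Pgk1 was lowered more in SOX2 (-1.95 ± 0.30 log2, adjusted p = 0.00056) and in miniSOX (-1.72 ± 0.32 log2, adjusted p = 0.00296), and the difference for Slc16a3 was largest in miniSOX (-5.91 ± 1.27 log2, adjusted p = 0.00722). For Pkm the difference from NTC was -1.58 ± 0.21 log2 (adjusted p = 0.000196) in SOX2, -1.22 ± 0.21 log2 (adjusted p = 0.00063) in FNV and -1.29 ± 0.23 log2 (adjusted p = 0.00189) in miniSOX. Hk1 moved the other way in SOX2 (1.94 ± 0.23 log2, adjusted p = 7.94e-05). Slc2a3 was also called more positive in SOX2, but both NTC libraries in SL and most in 2i stood at the ceiling, so the size of that difference cannot be read. Between rescued lines, 7 genes had a more positive effect in FNV than in SOX2 and 1 a more negative one (20.8% of all genes called, 10.1% lower and 10.7% higher), among them Pdk1 (1.68 ± 0.23 log2, adjusted p = 0.000218). For miniSOX against SOX2 2 were more positive and 2 more negative (11.9% of all genes called, 6% lower and 5.94% higher), and for miniSOX against FNV 0 and 1 (11.9% of all genes called, 6.19% lower and 5.73% higher). With replicates 1 and 2 averaged, the counts of these 6 tests were 1, 1, 0, 0, 1 and 0, where the SL groups of NTC, SOX2 and FNV hold 1 library each that is assumed to vary like the other groups, and among the genes named here only Hk1 in SOX2 against NTC still passed. For SOX2 against NTC the count of 14 was 8 without NTC SL replicate 1 and 9 without NTC SL replicate 2. For FNV against NTC the count of 8 was 5 without NTC 2i replicate 1, FNV 2i replicate 1 or 2, NTC SL replicate 1 or FNV SL replicate 2, 4 without FNV SL replicate 1 and 3 without NTC SL replicate 2. For miniSOX against NTC the count of 7 was 12 without NTC 2i p31. For FNV against SOX2 the count of 8 was 4 or 5 without any one SL library of the pair, and for miniSOX against SOX2 the count of 4 was 7 without NTC 2i p31 or FNV 2i p21 and 2 without SOX2 2i or SL replicate 1 or 2 or any miniSOX library. For miniSOX against FNV the single gene, Gpi1, was lost without any of 15 libraries.

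**Figure D5:**
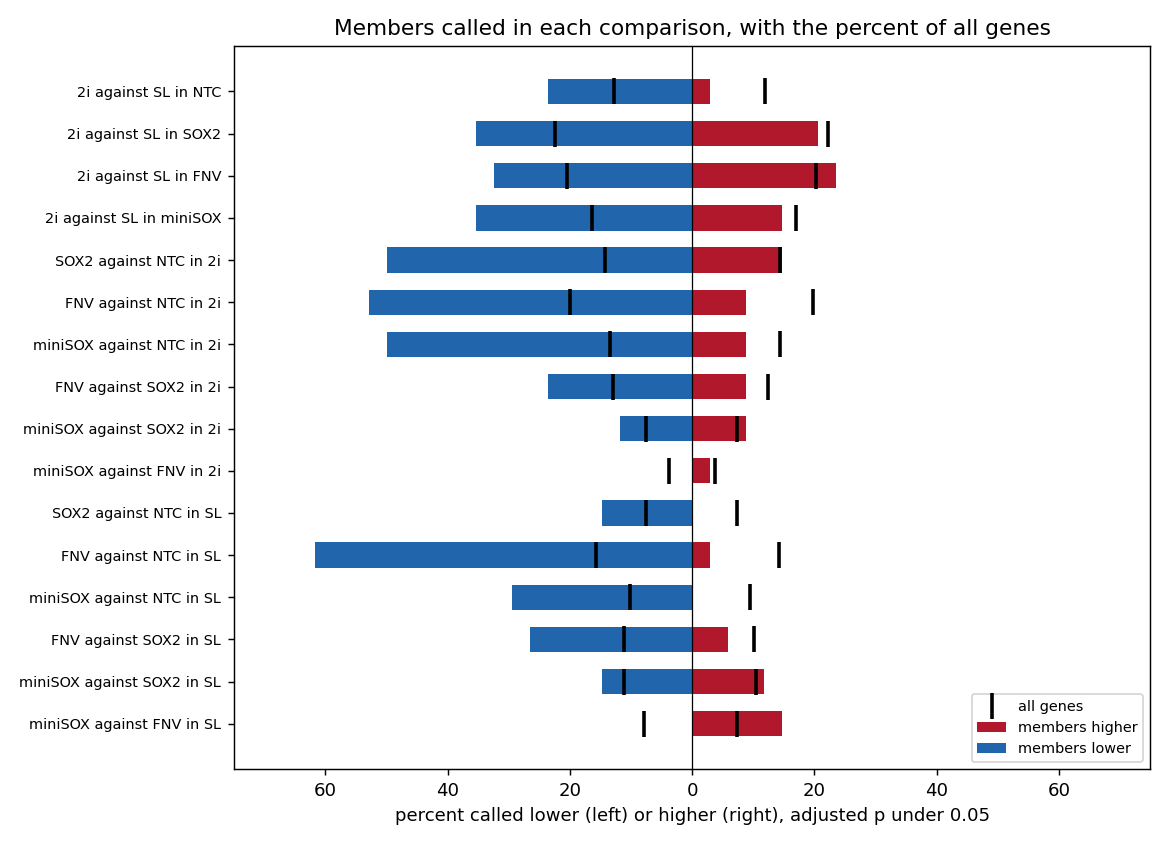
Percent of the 34 genes and of all 16443 genes called higher and lower in each of the 16 comparisons of groups. In FNV against NTC in 2i 18 of 34 genes were lower, where 20% of all genes were.

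Genes around the pathway, in lists that leave out the 34, were compared in the same way. Of 20 hypoxia response genes outside glycolysis that are in the table, 1 higher and 9 lower in SOX2, 1 higher and 10 lower in FNV and 0 higher and 7 lower in miniSOX passed against NTC in 2i, against 28.7%, 39.7% and 27.7% of all genes, with median log2 changes of -0.82, -0.64 and -0.49. The count of hypoxia genes in 2i went from 10 to 2 in SOX2, from 11 to 6 in FNV and from 7 to 4 in miniSOX within the second set alone, and from 10 to 4 in SOX2, from 11 to 7 in FNV and from 7 to 4 in miniSOX with replicates averaged. Egln3, an oxygen-sensing prolyl hydroxylase that is itself induced by hypoxia, led the list. In 2i, Egln3 stood at 490, 572 and 355 in NTC, 31, 34, 35 and 22 in SOX2, 19, 17, 34 and 20 in FNV and 16 and 17 in miniSOX. In SL, Egln3 stood at 956 and 927 in NTC, 538 and 560 in SOX2, 75 and 66 in FNV and 103 and 116 in miniSOX. Every rescued library was below every NTC library in both media. Egln3 fell in 2i in SOX2 (-3.90 ± 0.22 log2, adjusted p = 5.99e-08), FNV (-4.35 ± 0.22 log2, adjusted p = 4.44e-09) and miniSOX (-4.71 ± 0.29 log2, adjusted p = 7.74e-08). Bnip3, a mitophagy receptor, fell in 2i in SOX2 (-3.46 ± 0.34 log2, adjusted p = 8.65e-06), FNV (-2.46 ± 0.34 log2, adjusted p = 5.33e-05) and miniSOX (-2.83 ± 0.45 log2, adjusted p = 0.000314). Egln1, on the same list, did not follow them. Its 2i values were 460, 540 and 609 in NTC and 154, 217, 631 and 577 in SOX2. Above all of these were FNV, at 1962, 2074, 1621 and 2027, and miniSOX, at 1049 and 1124. In SL 3 of the list fell in SOX2, 14 in FNV and 6 in miniSOX, and none rose, against 15%, 30% and 19.6% of all genes called in either direction, so that the share in SOX2 was that of all genes. The count in SL went from 14 to 9 in FNV without the term for the set, from 3 to 11 in SOX2 within the first set alone, and from 3 to 0 in SOX2, from 14 to 5 in FNV and from 6 to 2 in miniSOX with replicates averaged. Without FNV 2i p21 the SOX2 count in 2i was 16, without NTC SL replicate 1 the FNV count in SL was 7, without NTC 2i p31 the miniSOX count in SL was 10, and without any one of the 4 SL libraries of NTC and SOX2 the SOX2 count in SL was 1. The calls for Bnip3 in SOX2 against NTC in 2i (adjusted p = 0.0629), FNV against NTC in 2i (adjusted p = 0.137) and miniSOX against NTC in 2i (adjusted p = 0.0692) did not pass within the second set alone. For Bnip3, the log2 change without NTC 2i p31 was -3.60 in miniSOX against NTC in 2i.

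Another list holds genes that run the pathway backward or divert its intermediates to glycerol phosphate, and most of them were higher than NTC in 2i. Of 7 in the table, 5 higher and 1 lower in SOX2, 5 higher and 1 lower in FNV and 5 higher and 1 lower in miniSOX passed against NTC, against 28.7%, 39.7% and 27.7% of all genes, with medians of 1.14, 1.06 and 0.93. Their count went from 6 to 2 in SOX2 within the second set alone, and from 6 to 3 in SOX2 with replicates averaged. Fbp2 encodes the muscle form of fructose bisphosphatase, which undoes the phosphofructokinase step. In 2i Fbp2 stood at 68, 68 and 196 in NTC, 121, 130, 222 and 223 in SOX2, 519, 485, 572 and 779 in FNV and 384 and 459 in miniSOX. FNV and miniSOX were above all NTC libraries, while SOX2 overlapped them. Fbp2 rose in FNV (2.43 ± 0.18 log2, adjusted p = 1.19e-07) and miniSOX (1.54 ± 0.23 log2, adjusted p = 0.000217). Gpd1l, a glycerol phosphate dehydrogenase homolog, rose in SOX2 (1.19 ± 0.11 log2, adjusted p = 3.16e-06) and FNV (1.06 ± 0.11 log2, adjusted p = 2.32e-06), and Fbp1, the liver form of fructose bisphosphatase, rose in FNV (1.51 ± 0.26 log2, adjusted p = 0.000354) and miniSOX (1.91 ± 0.34 log2, adjusted p = 0.000809). Gpd1l in miniSOX (553 and 589) was also above all NTC libraries in 2i (326, 338 and 410). So was Fbp1 in SOX2 (33, 44, 26 and 19 against 10, 11 and 9). Pck2, mitochondrial phosphoenolpyruvate carboxykinase, rose in miniSOX (3.91 ± 0.63 log2, adjusted p = 0.000439), with NTC p31 at 84 against 1065 and 996 in the other NTC libraries. For Pck2, the log2 change without NTC 2i p31 was 2.61 in miniSOX against NTC in 2i.

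Of 10 other pyruvate genes, 4 higher and 2 lower in SOX2, 3 higher and 2 lower in FNV and 3 higher and 3 lower in miniSOX passed against NTC in 2i, against 28.7%, 39.7% and 27.7% of all genes, with medians of 0.19, -0.12 and 0.07. The count of pyruvate genes went from 6 to 3 in SOX2 without the term for the set, from 6 to 2 in SOX2, from 5 to 3 in FNV and from 6 to 3 in miniSOX within the second set alone, and from 6 to 3 in SOX2, from 5 to 3 in FNV and from 6 to 2 in miniSOX with replicates averaged. Pdp2, the phosphatase that switches pyruvate dehydrogenase back on, led the higher ones. Its 2i values were 628, 593 and 1106 in NTC, 1286, 1363, 1804 and 1900 in SOX2, 2818, 2659, 3536 and 3056 in FNV and 2429 and 2492 in miniSOX, without overlap between NTC and any rescued line. Pdp2 rose in SOX2 (0.99 ± 0.10 log2, adjusted p = 1.06e-05), FNV (1.93 ± 0.10 log2, adjusted p = 5.22e-09) and miniSOX (1.39 ± 0.13 log2, adjusted p = 3.69e-06). Me1, the cytosolic malic enzyme, which makes pyruvate and NADPH, rose in FNV (1.38 ± 0.09 log2, adjusted p = 5.20e-08) and miniSOX (1.10 ± 0.12 log2, adjusted p = 1.40e-05). Me1 in SOX2, at 2677, 2414, 2028 and 2395, was also above all NTC libraries (1471, 1531 and 1395). The SOX2 count of 6 was 3 without NTC 2i replicate 1, NTC 2i replicate 2 or SOX2 2i replicate 1. Of 13 other glycolysis and lactate genes, 3 higher and 4 lower in SOX2, 5 higher and 2 lower in FNV and 4 higher and 3 lower in miniSOX passed, against 28.7%, 39.7% and 27.7% of all genes, with medians of 0.22, 0.23 and 0.40. The count for this list went from 7 to 3 in SOX2 without the term for the set, from 7 to 4 in SOX2 within the first set alone, from 7 to 2 in SOX2, from 7 to 3 in FNV and from 7 to 3 in miniSOX within the second set alone, and from 7 to 1 in SOX2 and from 7 to 3 in miniSOX with replicates averaged. Emb, which encodes embigin, a chaperone of monocarboxylate transporters, fell in SOX2 (-2.49 ± 0.20 log2, adjusted p = 1.38e-06), FNV (-3.07 ± 0.20 log2, adjusted p = 4.58e-08) and miniSOX (-2.33 ± 0.26 log2, adjusted p = 1.92e-05). Here the SOX2 count of 7 was 2 to 4 without NTC 2i replicate 1 or 2, SOX2 2i replicate 1 or 2 or SOX2 2i p31, and the miniSOX count of 7 was 4 without miniSOX 2i replicate 1.

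Of 8 pentose phosphate genes, 3 higher and 1 lower in SOX2, 4 higher and 1 lower in FNV and 3 higher and 1 lower in miniSOX passed against NTC in 2i, against 28.7%, 39.7% and 27.7% of all genes, with medians of 0.21, 0.33 and 0.22. The pentose phosphate count went from 4 to 1 in SOX2 without the term for the set, from 4 to 1 in SOX2 within the second set alone, and from 4 to 1 in SOX2 with replicates averaged. G6pdx, the entry enzyme of that route, fell in FNV (-0.55 ± 0.10 log2, adjusted p = 0.000507) and miniSOX (-0.78 ± 0.13 log2, adjusted p = 0.000478), and H6pd, its counterpart in the endoplasmic reticulum, rose in FNV (1.37 ± 0.20 log2, adjusted p = 6.59e-05) and miniSOX (1.46 ± 0.25 log2, adjusted p = 0.000706). The SOX2 count of 4 was 2 without NTC 2i p31, SOX2 2i replicate 1, p21 or p31. Of 12 galactose and glycogen genes, 3 higher and 4 lower in SOX2, 3 higher and 2 lower in FNV and 3 higher and 0 lower in miniSOX passed, against 28.7%, 39.7% and 27.7% of all genes, with medians of -0.16, -0.09 and -0.20. The galactose and glycogen count went from 7 to 3 in SOX2 without the term for the set, from 7 to 1 in SOX2 and from 5 to 3 in FNV within the second set alone, and from 7 to 2 in SOX2 with replicates averaged. Galt, which follows galactokinase, rose in FNV (1.67 ± 0.21 log2, adjusted p = 2.02e-05) and miniSOX (1.17 ± 0.27 log2, adjusted p = 0.00514). Galt in SOX2, at 191, 195, 119 and 110, was also above all NTC libraries (73, 88 and 81). The SOX2 count of 7 was 2 without NTC 2i replicate 1 or 2, 3 without SOX2 2i replicate 1 and 4 without SOX2 2i replicate 2, and the miniSOX count of 3 was 7 without NTC 2i p31. Of 20 regulators of these genes, 5 higher and 4 lower in SOX2, 4 higher and 9 lower in FNV and 2 higher and 5 lower in miniSOX passed, against 28.7%, 39.7% and 27.7% of all genes, with medians of -0.07, -0.24 and -0.33, and the miniSOX count was 11 without FNV 2i p21. The regulator count went from 9 to 1 in SOX2, from 13 to 5 in FNV and from 7 to 4 in miniSOX within the second set alone, and from 9 to 4 in SOX2 with replicates averaged. Epas1, which encodes a hypoxia-inducible factor alpha subunit, rose in SOX2 (3.15 ± 0.26 log2, adjusted p = 1.87e-06), FNV (4.54 ± 0.26 log2, adjusted p = 1.34e-08) and miniSOX (3.25 ± 0.34 log2, adjusted p = 1.09e-05). Its values in 2i were 35, 29 and 41 in NTC, 270, 208, 316 and 730 in SOX2, 833, 766, 802 and 1197 in FNV and 415 and 469 in miniSOX, with no overlap between NTC and the rescued lines. Mlxipl, which encodes the glucose-sensing factor ChREBP, rose in FNV (1.90 ± 0.22 log2, adjusted p = 8.16e-06) and miniSOX (2.48 ± 0.28 log2, adjusted p = 2.06e-05), and Lin28a, an RNA-binding protein of pluripotent cells, fell in FNV (-2.69 ± 0.31 log2, adjusted p = 8.83e-06). Lin28a in SOX2 (29, 26, 113 and 50) and miniSOX (106 and 121) was also below all NTC libraries in 2i (174, 199 and 543).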

How the data were processed

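The 21 libraries were made, per the labels, from total RNA enriched for poly(A) with oligo(dT) beads and copied with random hexamers. The submitters' processing notes name RSEM, Bowtie2 2.0 and mm10, and their order and the normalization software are not given in the sources used here. The deposited values have no stated unit and were taken as a score (whole numbers, normalized by the authors to nearly 1 distribution): between libraries the sorted values differ by 3 or less, and 66.3% of ranks are identical throughout. At least 2 libraries exceeded 20 for every gene, and depth is unknown. Groups came from the labels and all 21 columns were used. The 5 p21 and p31 columns were matched to a group only.

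Groups were compared with limma 3.58.1 (R 4.3.3), trend and robust moderation, on log2(value + 1), with a term for each group and for the deposited set, over all libraries (12 residual degrees of freedom), two-sided, adjusted by Benjamini-Hochberg over 16443 genes. Folds of low genes are understated on this scale. The procedure was tested on simulated data. The comparisons were 2i against SL in each line, each pair of lines in each medium, and the 6 differences of the 2i effect. Genes were given library by library where, in at least 1 of 16 comparisons, they were called with a log2 change of at least 1, a higher group mean of 20 or more and libraries that did not overlap. Up to 4 genes of each pathway list were named by the largest called change. The 34 genes, the 7 pathway lists and the 4 marker lists were chosen with earlier results of these data known. Alternatives were the pseudocount (10 and 0.1), a minimum mean of 50, centring, the set term, single sets, averaged first-set replicates, the replicate block and each library left out, and for the pathway lists these were added after seeing the data. No genome or sequence table of promoters or proteins was used here, and coordinates are those of GENCODE M21 on GRCm38 (mm10). Figures were drawn with matplotlib 3.10.9.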

Additional observations from a re-analysis of the deposited data

Results flagged for a closer look

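In the 68 groups of 4 libraries tested (34 genes in SOX2 and FNV in 2i), 13 had 1 library whose gap to the nearest other exceeded Dixon's critical value for 4 samples, where chance alone gives about 1 in 20 for 4 independent samples. These groups hold 2 libraries of each set, so that share need not apply to them. In SOX2 2i p31 this was Slc2a3 (25019, others 76006). In SOX2 2i p21 these were Hk2 (3301, others 2447 to 2503), Pkm (19697, others 11819 to 12486) and Slc16a3 (229, others 21 to 52). In SOX2 2i replicate 1 this was Aldoa (40745, others 30391). In FNV 2i p31 these were Aldoa (40745, others 30391), Gapdh (76006, others 40741), Pgam1 (5573, others 4178), Eno3 (637, others 226 to 276) and Slc16a1 (1616, others 2151 to 2199). In FNV 2i p21 these were Aldoc (94, others 47 to 48), Pfkfb2 (197, others 232 to 239) and Slc16a3 (77, others 15 to 17). None was in FNV 2i replicates 1 and 2 or SOX2 2i replicate 2, and Aldoa, Gapdh and Slc2a3 lie on the coarse steps at the top of the scale.

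The effect of 2i differed between lines, by the test of the difference itself, for the following genes, given as the log2 difference of the 2 effects. For SOX2 minus NTC they were Slc16a3 -4.42, Pgk1 -1.95, Ldha -1.73, Slc2a1 -1.70, Pdk1 -1.60, Pkm -1.58, Eno1 -0.75, Pgam1 -0.48, Galk1 0.80, Pfkm 0.83, Hk1 1.94, Pdk4 2.15, Pdk2 2.20 and Slc2a3 2.63. For FNV minus NTC they were Slc16a3 -3.76, Pkm -1.22, Pgk1 -0.92, Pgam1 -0.47, Gpi1 0.45, Hk1 0.81, Galk1 0.87 and Pfkm 1.72. For miniSOX minus NTC they were Slc16a3 -5.91, Pgk1 -1.72, Pkm -1.29, Galk1 0.94, Pfkm 1.04, Eno2 2.27 and Pdk2 2.85. For FNV minus SOX2 they were Hk1 -1.13, Gpi1 0.45, Hk2 0.62, Pfkm 0.90, Pgk1 1.03, Ldha 1.55, Pdk1 1.68 and Eno3 2.07. For miniSOX minus SOX2 they were Hk1 -1.48, Slc16a1 -1.03, Eno1 0.95 and Pdk1 0.96. For miniSOX minus FNV it was Gpi1 -0.41. Slc2a3 stood at the ceiling in most NTC libraries, so the size of its difference cannot be read. The comparisons with NTC share the NTC libraries, and those with SOX2 the SOX2 libraries.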

How the results depend on the processing

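Of the 250 calls made for the 34 genes over the 16 comparisons and 6 differences, 246 held at a pseudocount of 10, 249 at 0.1, 246 with values centred on the median log2 ratio (largest shift of a library 0.0369), and all 234 testable ones with a filter at a mean of 50. Without the term for the set 183 held, with the replicate number as a block 216, within the first set alone 162 of 169, within the second set alone 48 of 99, and with replicates 1 and 2 averaged 94. Counts of genes called that moved by over 1.5 times follow, with the main count first. With replicates averaged, the count went from 9 to 1 in 2i against SL in NTC, from 19 to 9 in 2i against SL in FNV, from 22 to 11 in SOX2 against NTC in 2i, from 20 to 13 in miniSOX against NTC in 2i, from 11 to 2 in FNV against SOX2 in 2i, from 7 to 2 in miniSOX against SOX2 in 2i, from 1 to 0 in miniSOX against FNV in 2i, from 5 to 1 in SOX2 against NTC in SL, from 22 to 4 in FNV against NTC in SL, from 10 to 3 in miniSOX against NTC in SL, from 11 to 1 in FNV against SOX2 in SL, from 9 to 1 in miniSOX against SOX2 in SL, from 5 to 0 in miniSOX against FNV in SL, from 14 to 1 in the 2i effect, SOX2 minus NTC, from 8 to 1 in the 2i effect, FNV minus NTC, from 7 to 0 in the 2i effect, miniSOX minus NTC, from 8 to 0 in the 2i effect, FNV minus SOX2, from 4 to 1 in the 2i effect, miniSOX minus SOX2 and from 1 to 0 in the 2i effect, miniSOX minus FNV. Within the second set alone, the count went from 22 to 8 in SOX2 against NTC in 2i, from 21 to 11 in FNV against NTC in 2i, from 11 to 0 in FNV against SOX2 in 2i, from 7 to 2 in miniSOX against SOX2 in 2i and from 1 to 0 in miniSOX against FNV in 2i. Without the term for the set, the count went from 11 to 7 in FNV against SOX2 in 2i, from 1 to 0 in miniSOX against FNV in 2i, from 5 to 3 in SOX2 against NTC in SL, from 9 to 4 in miniSOX against SOX2 in SL, from 14 to 8 in the 2i effect, SOX2 minus NTC, from 8 to 4 in the 2i effect, FNV minus NTC, from 8 to 5 in the 2i effect, FNV minus SOX2 and from 1 to 0 in the 2i effect, miniSOX minus FNV. Within the first set alone, the count went from 11 to 18 in FNV against SOX2 in 2i, from 5 to 17 in SOX2 against NTC in SL, from 11 to 19 in FNV against SOX2 in SL, from 14 to 24 in the 2i effect, SOX2 minus NTC, from 8 to 19 in the 2i effect, FNV minus NTC and from 8 to 16 in the 2i effect, FNV minus SOX2. With the replicate block, the count went from 5 to 8 in SOX2 against NTC in SL, from 5 to 1 in miniSOX against FNV in SL, from 7 to 11 in the 2i effect, miniSOX minus NTC and from 1 to 4 in the 2i effect, miniSOX minus FNV. With a single library left out, the counts ran from 5 to 10 in 2i against SL in NTC, from 16 to 21 in 2i against SL in SOX2, from 14 to 23 in 2i against SL in FNV, from 11 to 20 in 2i against SL in miniSOX, from 18 to 23 in SOX2 against NTC in 2i, from 18 to 23 in FNV against NTC in 2i, from 16 to 22 in miniSOX against NTC in 2i, from 7 to 15 in FNV against SOX2 in 2i, from 1 to 11 in miniSOX against SOX2 in 2i, from 0 to 4 in miniSOX against FNV in 2i, from 3 to 10 in SOX2 against NTC in SL, from 13 to 23 in FNV against NTC in SL, from 5 to 15 in miniSOX against NTC in SL, from 7 to 14 in FNV against SOX2 in SL, from 5 to 13 in miniSOX against SOX2 in SL, from 1 to 7 in miniSOX against FNV in SL, from 8 to 16 in the 2i effect, SOX2 minus NTC, from 3 to 12 in the 2i effect, FNV minus NTC, from 5 to 12 in the 2i effect, miniSOX minus NTC, from 4 to 11 in the 2i effect, FNV minus SOX2, from 2 to 7 in the 2i effect, miniSOX minus SOX2 and from 0 to 3 in the 2i effect, miniSOX minus FNV. The direction reversed, without a call, for Hk2 in SOX2 against NTC in 2i (0.0021, within the second set alone), Aldoc in SOX2 against NTC in 2i (0.0167, within the second set alone), Aldoc in FNV against NTC in 2i (0.0699, within the second set alone), Pgm1 in FNV against NTC in 2i (0.107, within the second set alone) and Pgls in miniSOX against NTC in 2i (-0.324, without the term for the set). The cause of these moves was not tested, beyond the fewer libraries in the set-wise and averaged fits. The replicate numbers are not stated to pair libraries, and the correlations of replicate differences between groups lay between -0.0665 and 0.0858, so the block result is given here and not beside the results. Limits of these results include the 2 libraries per SL group, which may be technical replicates, the sets that split miniSOX from the other lines, the stepped top of the scale, and the unknown read depth.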
